A study of Homo sapiens with 21 samples.

Results

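The complement genes described here were chosen by gene symbol, with earlier results of these data known: C3, C1R, C1S, CFB, CFD, CFI, SERPING1, CD55 and CD59, which are 9 of the 16383 genes in the deposited table. C3 was chosen for the size of its rise in senescent cells, so every difference of these 9 genes between senescent and proliferating cells below is a description with no test. Poly(A)-captured RNA of IMR90 cells, a long-established human lung fibroblast line, was sequenced in 7 groups of 3 libraries. In 6 groups the cells were irradiated to induce senescence, received siRNA at 5 nM with DharmaFECT on days 4 and 7, and were harvested on day 10 after irradiation. The siRNA was one of 2 non-targeting controls (NT3 and NT4), or targeted CCND1 (cyclin D1), CDK4, CDK6, or CDK4 and CDK6 together, called dual knockdown here. Proliferating cells were neither irradiated nor transfected, so the effects of irradiation and of transfection cannot be told apart in any comparison with them. The sample titles number the non-targeting siRNAs 3 and 4, as here, while the series text numbers them 1 and 2. The labels name 1 siRNA product per target, and off-target effects of a reagent cannot be told apart from effects of its target.

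Complement is a cascade of plasma and membrane proteins that marks particles and cells for clearance. C1r and C1s are the serine proteases of the first component; with C1q they start the classical pathway, and C3, the central component, is cleaved in all pathways. Factors B and D build the alternative pathway convertase, C1 inhibitor (SERPING1) and factor I restrain the proteases and inactivate cleaved C3, and CD55 and CD59 are membrane anchored proteins that protect a cell's own surface from convertases and from the membrane attack complex. Most plasma complement is made in the liver, but fibroblasts also transcribe C3, C1R, C1S and SERPING1, and C3 is induced by inflammatory cytokines.

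Libraries held between 12892442 and 21822152 reads in the listed genes. Values are the deposited normalised counts, meaning reads divided by a factor for each library. No listed gene had an Entrez ID above 140467, so shares and rankings over all genes leave out genes with higher IDs. The targeted genes followed the labels: CCND1 was at 11.8% of the controls in CCND1 knockdown, CDK4 at 8.67% in CDK4 knockdown and 9.41% in dual knockdown, while CDK6 stood at 16.4% with CDK6 and 20.6% with dual knockdown. All 10 fibroblast markers were expressed, with summed levels between 453201 and 868393 normalised counts, highest in dual knockdown (683272 to 868393); the part of this in the results was not tested. None of 5 lymphocyte markers passed the filter on low values. Of 9 monocyte and macrophage markers, CD14, CD68 and CSF1R passed, PTPRC reached at most 8.90 and LYZ at most 2.94, and the summed level was 661.9 to 693.5 normalised counts in proliferating cells, 906 to 1027 in NT3, 1301 to 1466 in NT4, 1522 to 1629 in CDK4 knockdown and 891 to 1139.96 in the other knockdowns. Of the endothelial markers, TEK, KDR and VWF passed, and CDH5 reached at most 3.28. The summed endothelial level was highest in CDK6 knockdown (4092 to 4509, against 2058 to 3717 in the controls). Single genes made most of the macrophage and endothelial sums. Over all libraries CD68 ranged from 650 to 1588 normalised counts and TEK from 1756 to 4484. No other listed macrophage marker exceeded 37.95 and no other endothelial marker exceeded 22.33. The part of these shifts in the results was not tested. Of the epithelial markers, EPCAM, KRT8 and KRT18 passed, with a summed level of 1144 to 1314 in CDK6 knockdown, 1831 to 2403 in NT3 and 1325 to 1411 in NT4, and of the hepatocyte markers only APOB passed, with ALB at most 3.93. The table columns carry the group and a running code but no replicate number, so replicates 1 to 3 are names given in ascending code order. Codes of irradiated libraries formed 3 runs of 6, each with 1 library of each irradiated group, and what the codes stand for is not stated. The labels do not say that libraries of a group came from separate cultures, so p-values measure the spread between these libraries, which may be technical.

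Of the 9 genes, 6 passed the filter (a normalised count of at least 10 in at least 3 libraries) and were tested: C3, C1R, C1S, SERPING1, CD55 and CD59. CFB, CFD and CFI did not. A gene was called where limma's two-sided test on log2(normalised count + 1) gave a Benjamini-Hochberg adjusted p under 0.05, and differences are given on that scale. Senescent controls, meaning NT3 and NT4 together, are compared with proliferating cells by their values only, since that contrast chose the genes. By this rule 68.6% of all tested genes were called in it. Of the 6, CCND1 knockdown lowered 1 against the controls (31.0% of all tested genes called), CDK4 knockdown 1 (16.0%), CDK6 knockdown 2 (41.9%) and dual knockdown 4 (44.0%). None was called higher in a knockdown. The shares called with CCND1, CDK4 and CDK6 knockdown are near or below those over all genes, so nothing is read from the counts, and the genes are described one by one. NT4 differed from NT3 in 3 of the 6 (27.8% over all genes), all lower in NT4. The 4 knockdown comparisons share their control libraries with each other and with the contrast that chose the genes. Differences between knockdowns use no control library, but their tests share the spread estimated over all 7 groups.

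**Figure D1:**
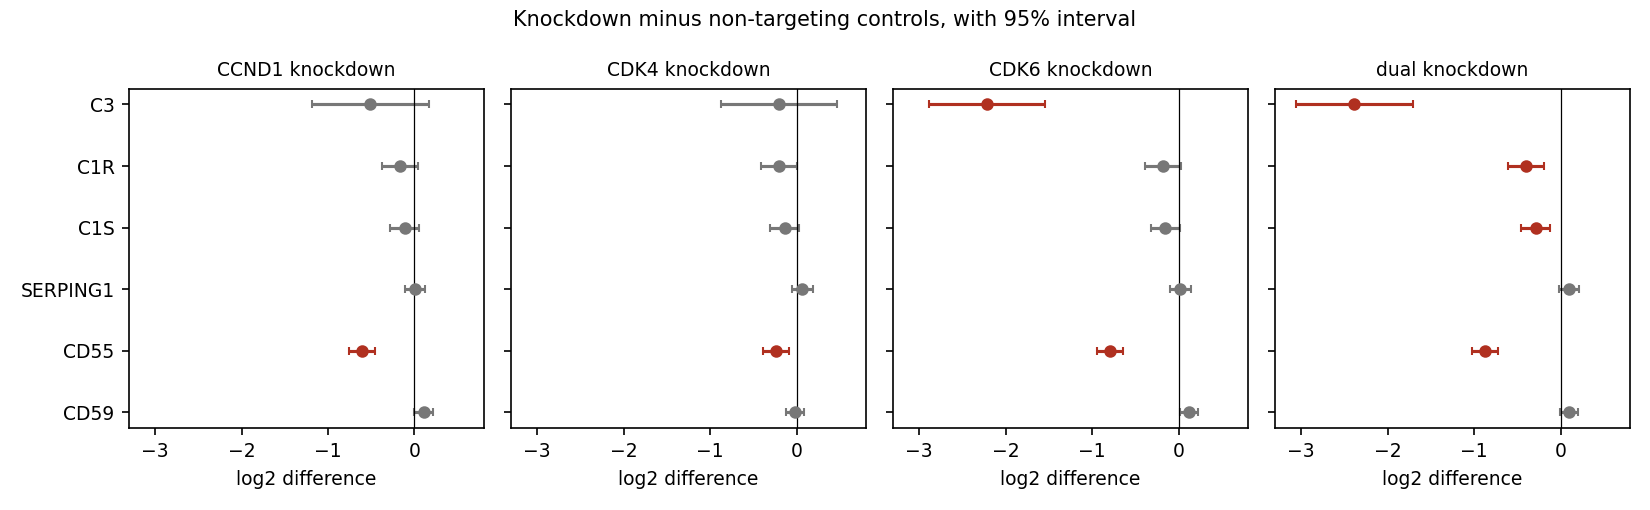
Log2 difference on the log2(normalised count + 1) scale of each knockdown from the 6 non-targeting control libraries, for the 6 tested genes (rows) in 4 panels, 1 per knockdown; points are limma estimates, bars 95% intervals, red marks an adjusted p under 0.05. C3 stood at -2.21 with CDK6 knockdown and -2.38 with dual knockdown, and CD55 was lower in all 4 panels.

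C3 transcripts were nearly absent from proliferating cells and abundant in the senescent controls. Knockdown of CDK6, alone or with CDK4, lowered them to 22.9% and 18.1% of the mean of the 6 control libraries. C3 (ENSG00000125730) lies on the minus strand of chromosome 19 at 6677704 to 6730562 in hg38. Proliferating libraries 1, 2 and 3 held 7.86, 3.19 and 1.77 normalised counts, from 9, 3 and 2 reads. NT3 held 2313, 2960 and 3065, and NT4 held 1255, 1186 and 1821. The control mean was 2100 ± 818 (SD, n = 6), a ratio to proliferating cells of 491, with a 95% exact Poisson interval of 293 to 899 that covers only the counting error of the 14 proliferating reads. In a bulk sample, a change in the number of expressing cells cannot be told apart from a change in RNA per cell.

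CDK6 knockdown libraries held 262, 343 and 836 normalised counts of C3, and dual knockdown libraries 296, 399.5 and 445.5. All of these lay below the lowest control library and far above the proliferating cells. Against the controls, C3 fell by 2.21 on the log2 scale (SE 0.32; limma adjusted p = 1.21e-05) with CDK6 knockdown, to 22.9% of the control mean. With dual knockdown it fell by 2.38 (SE 0.32; limma adjusted p = 3.77e-06), to 18.1%. These percentages pool 2 controls whose C3 means were 2779 in NT3 and 1421 in NT4. Over 22 alternatives, each control alone among them, the difference ranged from -2.71 to -1.72 with CDK6 knockdown. With dual knockdown it ranged from -2.88 to -1.89, and both calls held in all 22. CCND1 knockdown libraries held 1052, 1099 and 2258, and CDK4 knockdown libraries 1473, 1887 and 1795, both overlapping the controls. Neither passed the test: the difference was -0.51 for CCND1 knockdown (95% interval -1.18 to 0.16; limma adjusted p = 0.245) and -0.20 for CDK4 knockdown (-0.87 to 0.47; limma adjusted p = 0.738). The spread between libraries leaves room for a fall in CCND1 knockdown as large as the lower bound.

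**Figure D2:**
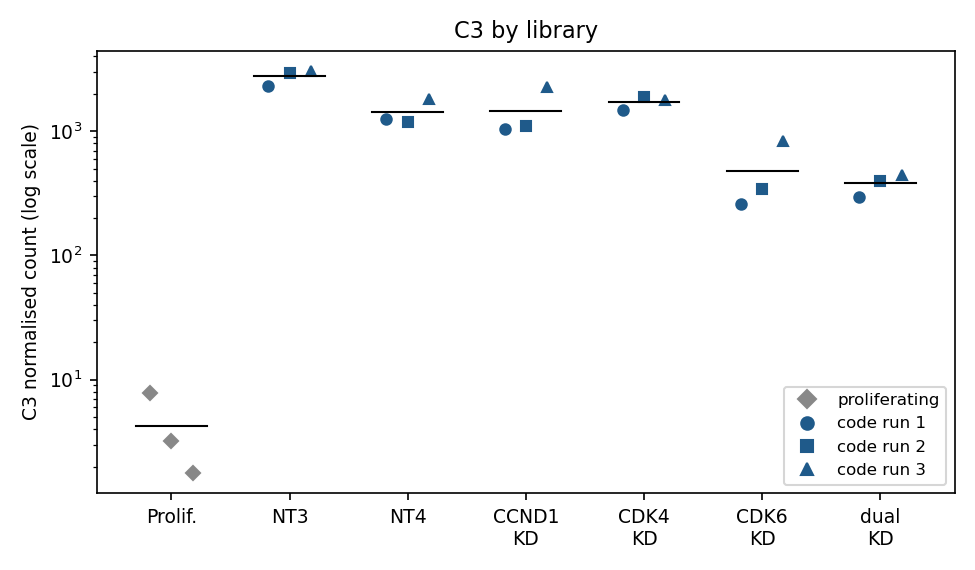
C3 normalised count (log axis) in each of the 21 libraries by group; horizontal lines are group means and marker shapes show the run of column codes. Proliferating libraries lie below 8, CDK6 and dual knockdown libraries between 262 and 836, and every other irradiated library at or above 1052.

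The knockdowns were also compared with each other, in 6 pairs whose differences involve no control library. Their SE and p-values rest on a spread estimated over all 7 groups. C3 was lower with CDK6 than with CDK4 knockdown by 2.02 on the log2 scale (SE 0.37; limma adjusted p = 0.000218), and lower with dual than with CDK4 knockdown by 2.18 (SE 0.37; limma adjusted p = 0.000108). It was higher with CCND1 than with CDK6 knockdown (difference 1.70, SE 0.37; limma adjusted p = 0.00371) and higher with CCND1 than with dual knockdown (1.87, SE 0.37; limma adjusted p = 0.000928). In these 4 comparisons the libraries of the groups did not overlap. Dual and CDK6 knockdown differed by -0.17 (95% interval -0.95 to 0.61) and CCND1 and CDK4 knockdown by -0.31 (-1.09 to 0.47), and neither passed. The dual knockdown departed from the added effects of its single knockdowns by 0.03 (-0.998 to 1.06), which did not pass either. Called counts of the 6 genes were 2 for CDK6 against CDK4 knockdown, where 34.8% of all genes were called, 2 for dual against CDK4 knockdown (30.6%), 0 for dual against CDK6 knockdown (13.0%), 1 for CCND1 against CDK4 knockdown (23.3%), 1 for CCND1 against CDK6 knockdown (12.2%), 2 for CCND1 against dual knockdown (20.3%), and 0 for the departure from the sum (6.35%). The genes called were C3 and CD55 in these comparisons. Without dual knockdown replicate 2, the high library of C1R, C1R was also lower in dual than in CDK6 knockdown (-0.36; limma adjusted p = 0.0395), raising that count from 0 to 1. With the same library left out, C1R was also lower in dual than in CDK4 knockdown (-0.34; limma adjusted p = 0.0277). It was then higher in CCND1 than in dual knockdown (0.38; limma adjusted p = 0.0218).

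C3 also varied among libraries of 1 group. Replicate 3 was highest in 5 of the 6 irradiated groups, those being the libraries of the third run of codes, and within each run the difference of CDK6 knockdown from the controls was -2.70, -2.45 and -1.50. Dual knockdown differed by -2.52, -2.23 and -2.40 within runs, and CCND1 knockdown by -0.70, -0.77 and -0.06. NT4 lay below NT3 in C3 by 0.98 (SE 0.37) without overlap of the libraries, and missed the threshold (limma adjusted p = 0.0543). That difference passed in 8 of 17 alternatives and missed in 9. It passed with the compared groups only (limma adjusted p = 0.0128) and with edgeR (adjusted p = 0.0179), so the 2 controls may differ in C3. With NT3 alone as the control, C3 was lower in CCND1 knockdown (-1.002; limma adjusted p = 0.0389), so the call for CCND1 knockdown rests on which control is used.

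C1R and C1S, which lie next to each other on chromosome 12 and encode the 2 proteases that act together, differed in what accompanied senescence. C1R (ENSG00000159403; minus strand, 7080214 to 7092540) held 2880, 3006 and 2776 normalised counts in proliferating libraries, 3301, 3013 and 2462 in NT3, and 2606, 2811 and 2944 in NT4. Those ranges overlap, and the means were 2856 ± 300 (SD, n = 6) in the controls and 2887 ± 115 (SD, n = 3) in proliferating cells. C1S (ENSG00000182326; plus strand, 6988259 to 7071032) held 2379, 2469 and 2285 in proliferating libraries, 7074, 6726 and 5633 in NT3, and 5165, 4986 and 5615 in NT4. Its control mean was 5866 ± 846 (SD, n = 6), 2.47 times the proliferating mean, with no overlap. The ratio of C1S to C1R within a library therefore separated the states: it was 0.824 ± 0.0025 (SD, n = 3) in proliferating libraries and between 1.77 and 2.39, with a median of 2.13, in the 18 irradiated libraries. That ratio needs no scaling between libraries, and its lowest irradiated values, 1.77 to 1.98, were those of NT4.

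Both proteases were lower in dual knockdown. C1R held 2023, 2646 and 1880 normalised counts there, and fell by 0.40 on the log2 scale against the controls (SE 0.10; limma adjusted p = 0.00267). C1S held 4482, 5404 and 4486, and fell by 0.29 (SE 0.08; limma adjusted p = 0.00651). In both genes replicate 2 was the high library and overlapped the controls. The C1S call was lost with NT4 alone as the control (-0.14; limma adjusted p = 0.264) and without dual knockdown replicate 1 (-0.24; limma adjusted p = 0.0501). In the other knockdowns C1R ranged from 2241 to 2776 and C1S from 4637 to 5763, all overlapping the controls, and the differences (-0.20 to -0.16 for C1R, -0.15 to -0.11 for C1S) did not pass. With NT3 alone as control, C1S was lower by limma with CCND1 (-0.26, adjusted p = 0.0305), CDK4 (-0.29, 0.0271) and CDK6 knockdown (-0.30, 0.0115). With NT4 alone it passed in none of them. Quantile normalization gave C1S calls with CCND1 (limma adjusted p = 0.0422) and CDK6 knockdown (0.0208). Without NT3 replicate 3, which had the lowest C1R and C1S of that group, both genes passed in CDK6 knockdown, raising its count from 2 to 4, and C1R passed in CDK4 knockdown, raising its count from 1 to 2. C1S was lower in NT4 than in NT3 by 0.30 (SE 0.09; limma adjusted p = 0.021), a call lost without NT3 replicate 1 or 2 or NT4 replicate 1 or 2 (adjusted p of 0.0608, 0.0624, 0.0649 and 0.0904), or when only the compared groups were fitted (0.123).

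**Figure D3:**
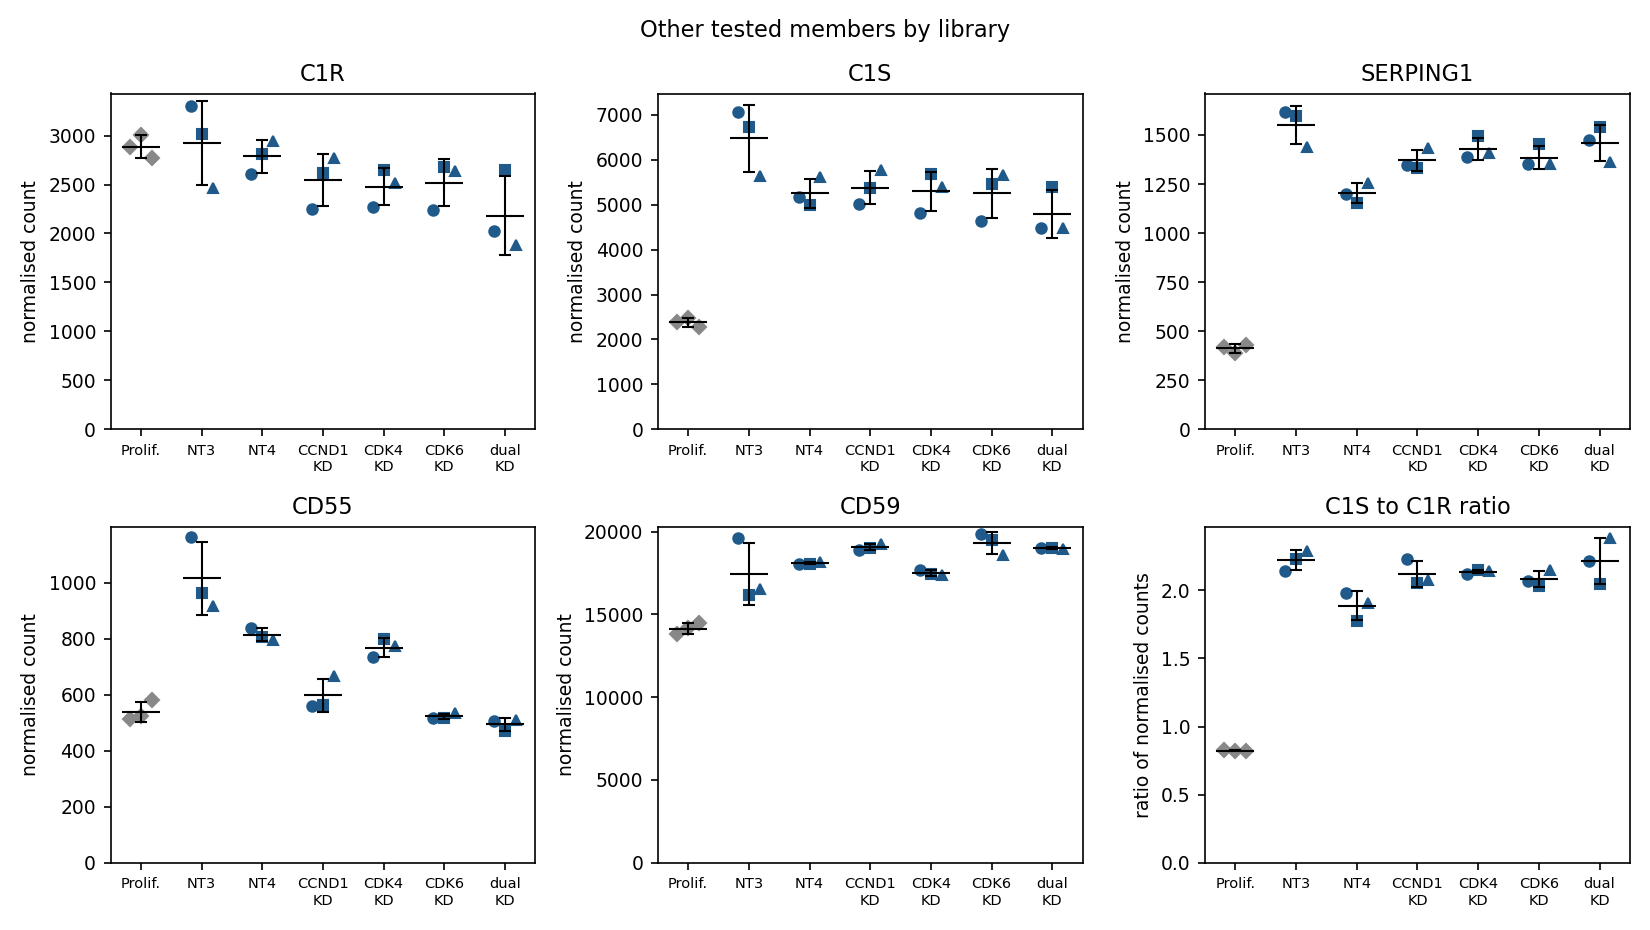
Normalised counts of C1R, C1S, SERPING1, CD55 and CD59 and the ratio of C1S to C1R in each library by group, on linear axes from 0, with group mean and SD (n = 3). C1R overlaps between proliferating and control libraries while C1S does not, and CD55 with CCND1, CDK6 or dual knockdown lies below every control library.

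Of the 9 genes, 6 had an entry in RefSeq's promoter table (GRCh38.p14), among them C1R, CD55 and CD59, whose bases upstream of the annotated exons are shown with each gene because their transcripts behaved differently. The 250 bases before each start site were searched on both strands for 6 motifs. These were NF-kB (GGNNNTTCC, in 17.1% of 35116 promoters), STAT (TTCNNNGAA, 6.57%), the interferon element ISRE (TTCNNTTTC, 6.88%), C/EBP (TTGCNNAA, 9.05%), AP-1 (TGANTCA, 6.57%) and E2F (GCGGGAA, 5.52%). The bases upstream of C1R, 5′ to 3′ on its strand (chr12:7092541-7092695), hold 1 match, to C/EBP on the opposite strand, in capitals at -106 from the start site.
C1R upstream: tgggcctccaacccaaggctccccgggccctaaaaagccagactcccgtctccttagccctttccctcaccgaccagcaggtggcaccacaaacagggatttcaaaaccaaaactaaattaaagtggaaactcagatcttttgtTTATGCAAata
A match is a run of letters, and binding was not measured.

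SERPING1, which encodes C1 inhibitor, was higher in every irradiated library than in any proliferating one, and the means of the 4 knockdowns lay between those of its 2 controls. The gene (ENSG00000149131) lies on the plus strand of chromosome 11 at 57597387 to 57619171. Proliferating libraries held 422, 386 and 429.6 normalised counts. NT3 held 1615, 1599 and 1439, and NT4 held 1200.3, 1154 and 1255. The control mean of 1377 ± 203 (SD, n = 6) was 3.34 times the proliferating mean of 413 ± 23.1 (SD, n = 3). NT4 was below NT3 by 0.36 on the log2 scale (SE 0.07; limma adjusted p = 0.00028), with no overlap.

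Knockdown libraries of SERPING1 ranged from 1332 to 1542 normalised counts, and the differences from the controls, 0.01 for CCND1, 0.07 for CDK4, 0.02 for CDK6 and 0.09 for dual knockdown, did not pass. These values average 2 controls that differ. Against NT4 alone, SERPING1 was higher by 0.19 in CCND1 knockdown, 0.25 in CDK4 knockdown, 0.20 in CDK6 knockdown and 0.28 with both targeted, and each passed. Against NT3 alone it was lower by 0.18 in CCND1 knockdown (difference -0.18) and by 0.16 in CDK6 knockdown (-0.16), and these passed in the opposite direction. No direct comparison between knockdowns passed for SERPING1.

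CD55, the decay-accelerating factor that dismantles convertases on the cell's own surface, was lower with all 4 knockdowns, and lay near the level of proliferating cells with CDK6 and dual knockdown. The gene (ENSG00000196352) lies on the plus strand of chromosome 1 at 207321519 to 207386804. Proliferating libraries held 515, 525 and 581 normalised counts. NT3 held 1165, 964 and 919, and NT4 held 841, 808 and 797, and NT4 was lower by 0.31 (SE 0.08; limma adjusted p = 0.00866; 0.112 when only the compared groups were fitted). The control mean of 916 ± 138 (SD, n = 6) was 1.69 times the proliferating mean of 540.3 ± 35.6 (SD, n = 3), with no overlap.

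With CCND1 knockdown CD55 held 560.5, 565 and 667, with CDK6 knockdown 518, 518 and 534, and with dual knockdown 506, 469 and 509. Each of these libraries was below the lowest control, while CDK4 knockdown at 735, 799.9 and 773 overlapped NT4. Against the controls CD55 fell by 0.61 on the log2 scale with CCND1 knockdown (SE 0.07; limma adjusted p = 2.28e-06). It also fell with CDK6 knockdown (-0.79, SE 0.07; limma adjusted p = 2.23e-08) and with dual knockdown (-0.88, SE 0.07; limma adjusted p = 3.11e-09). With CDK4 knockdown it fell by 0.24 (SE 0.07; limma adjusted p = 0.0277), a call that was lost with NT4 alone as control (-0.08; adjusted p = 0.604), when only the compared groups were fitted (adjusted p = 0.108), and without NT4 replicate 1 (0.0534), CDK4 knockdown replicate 1 (0.149) or CDK4 knockdown replicate 3 (0.0809). CDK6 knockdown libraries lay within the range of the proliferating ones and dual knockdown libraries just below it; differences of knockdowns from proliferating cells were not tested.

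Directly compared, CD55 was lower than with CDK4 knockdown in CDK6 knockdown (-0.55, SE 0.08; limma adjusted p = 2.17e-05), in dual knockdown (-0.64, SE 0.08; 4.24e-06) and in CCND1 knockdown (-0.37, SE 0.08; 0.0026). It was higher with CCND1 than with dual knockdown by 0.27 (SE 0.08; limma adjusted p = 0.0256), which was lost without CCND1 knockdown replicate 3, the highest library of that group (0.19; adjusted p = 0.167), and without dual knockdown replicate 2 (0.23; adjusted p = 0.108). Dual and CDK6 knockdown differed by -0.08 (95% interval -0.26 to 0.09), and CCND1 and CDK6 knockdown by 0.19 (0.01 to 0.36; adjusted p = 0.167). With CCND1 knockdown CD55 passed and C3 did not, and a difference between the 2 genes was not tested. The bases upstream of the annotated exons of CD55, on the plus strand (chr1:207321428-207321518), hold none of the 6 motifs.
CD55 upstream: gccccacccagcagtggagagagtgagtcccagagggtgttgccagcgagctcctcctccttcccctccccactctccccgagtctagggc
The absence of those letters from this window says nothing of the factors.

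CD59, the inhibitor of the membrane attack complex, was the most abundant of the 9 genes. The gene (ENSG00000085063) lies on the minus strand of chromosome 11 at 33703010 to 33736479. Proliferating libraries held 13792, 14168 and 14456 normalised counts, NT3 held 19617, 16178 and 16509, and NT4 held 18031, 18051 and 18173. The control mean of 17759.9 ± 1253 (SD, n = 6) was 1.26 times the proliferating mean. Knockdown libraries ranged from 17356 to 19855.

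No knockdown passed against the controls for CD59: the differences were 0.10 with CCND1 knockdown, -0.02 with CDK4 knockdown, 0.12 with CDK6 knockdown (SE 0.05; limma adjusted p = 0.056) and 0.10 with dual knockdown. NT3 replicate 1, at 19617, was the high control library. Without it, CD59 was higher in CCND1 knockdown by 0.15 (limma adjusted p = 0.000653), in CDK6 knockdown by 0.17 (0.000108) and in dual knockdown by 0.14 (0.000548). Leaving it out raises the count for CCND1 knockdown from 1 to 2, and adds CD59 to the genes called with CDK6 and dual knockdown. With all libraries kept, CD59 in CDK6 knockdown also passed with edgeR (adjusted p = 0.0334), DESeq2 (0.0273), median centring (0.0400), a filter on a mean of 100 (0.0461) and NT3 alone as control (0.0378). It did not pass in 16 of 22 alternatives, and the difference ranged from 0.009 to 0.17. The lowest difference among alternatives was -0.014 with CCND1 knockdown and -0.07 with dual knockdown. Directly compared, CD59 was at 0.14 in CDK6 against CDK4 knockdown (limma adjusted p = 0.0654), with no overlap of the libraries. That difference passed with edgeR (0.0453), DESeq2 (0.0316) and the compared groups only (0.016), and CCND1 against CDK4 knockdown (0.12; adjusted p = 0.14) passed with the compared groups only (0.0243). CD55, the other membrane regulator among the 9, fell with CCND1, CDK6 and dual knockdown, where CD59 did not pass in the main fit. The bases upstream of CD59 (chr11:33736480-33736729, minus strand) hold 1 match to STAT at -128, which reads the same on both strands, and 1 to NF-kB at -74, both in capitals.
CD59 upstream: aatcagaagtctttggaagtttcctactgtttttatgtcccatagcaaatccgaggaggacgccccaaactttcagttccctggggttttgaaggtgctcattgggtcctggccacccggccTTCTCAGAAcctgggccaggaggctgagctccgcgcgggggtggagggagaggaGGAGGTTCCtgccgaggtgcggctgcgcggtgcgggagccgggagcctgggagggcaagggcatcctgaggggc
As for C1R, these are runs of letters.

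CFB, CFD and CFI, which encode factors B, D and I, had few reads or none. CFB (ENSG00000243649; chromosome 6, 31945650 to 31952086) had 4 reads in all, 1 in each of 4 libraries, all irradiated. CFI (ENSG00000205403; chromosome 4, minus strand, 109731008 to 109802150) had 21 reads in 10 libraries, at most 4 in one, and none in proliferating cells. CFD (ENSG00000197766; chromosome 19, 859453 to 867884) was listed at 0 in all 21 libraries, as were 1140 genes of the table. The limit that a count of 0 allows is 3 reads, worth 2.13 to 3.64 normalised counts depending on the library, and no fold is given where both groups lie at or under it. Knockdowns could not be compared for these 3 genes at this depth.

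For CFB the table itself limits what can be said. Between positions 29602238 and 33409896 of chromosome 6, from GABBR1 to KIFC1, the stretch around CFB that holds the histocompatibility complex, 118 of 127 protein-coding genes (92.9%) had a mean under 10 normalised counts, against 30.9% on the rest of chromosome 6 and 27.5% on other chromosomes. Genes that every cell uses were low there too: RPS18, a ribosomal protein gene, averaged 1.07 and reached at most 6.07, and DDX39B, a splicing helicase gene, was listed at 0 throughout. Only AGPAT1 (161) and HLA-B (1563) had a mean of at least 100 in that stretch. Of 19 listed neighbours of CFB, 17 had a mean under 10, while 5 of 19 did for CFD and 4 of 18 for CFI. CFB, and the complement genes C2, C4A and C4B in the same stretch, are therefore given only as listed at or near 0; why the stretch is low was not tested.

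**Figure D4:**
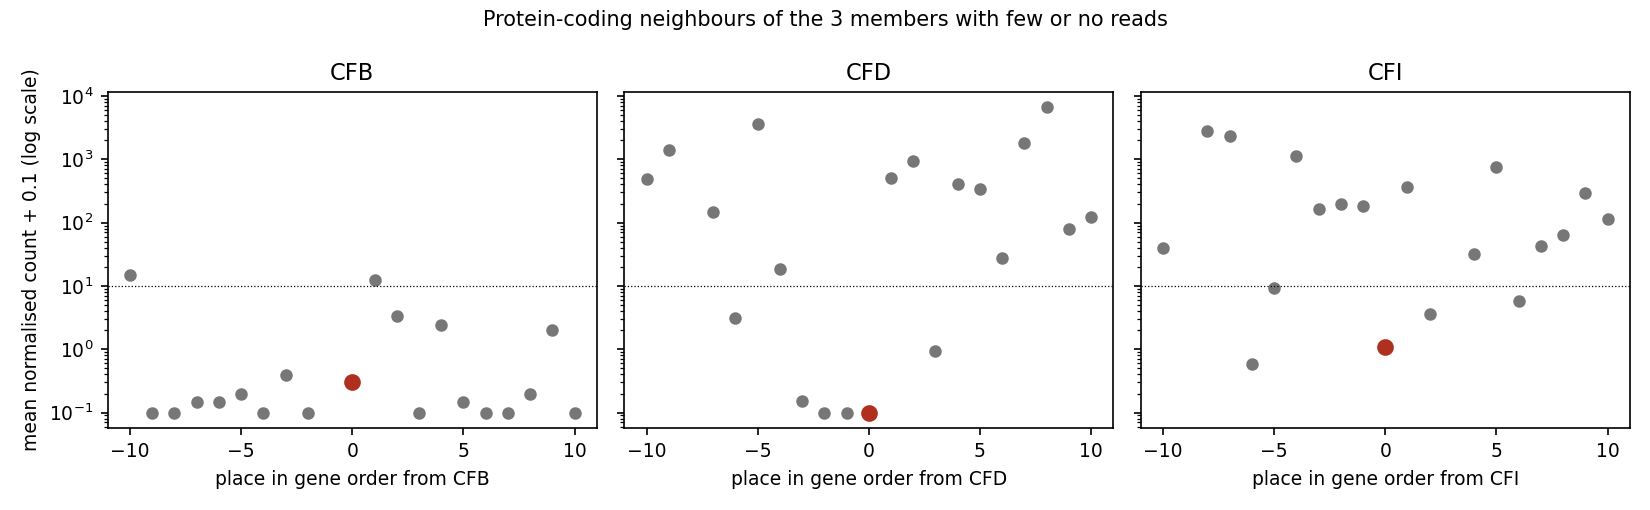
Mean normalised count over the 21 libraries plus 0.1 (log axis) of protein-coding genes around CFB, CFD and CFI, by place in gene order up to 10 genes away; the member is red and the dotted line marks 10. Nearly every neighbour of CFB lies near or under that line, while most neighbours of CFD and CFI lie above it.

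Compared per kb of merged exons (GENCODE v44), the control levels in normalised counts per kb were 1682 ± 119 for CD59, 707 ± 102.03 for C1S, 492 ± 51.7 for C1R, 190.4 ± 28.0 for SERPING1, 181 ± 70.6 for C3 and 89.3 ± 13.5 for CD55 (SD, n = 6 each). Libraries of C3 overlapped those of SERPING1 and of CD55 per kb, and the other neighbours in this order did not overlap. In proliferating cells C3 was at 0.369 ± 0.275 per kb (SD, n = 3), the lowest of the 6. Some exons of C3 (11.7% of bases), C1R (11.6%, shared with C1RL), CD59 (5.96%) and C1S (2.76%) overlap another annotated gene, and whether counting used strand is not given in the sources used here, so reads of those bases may be counted to either gene or to none.

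Across the 18 irradiated libraries, the genes whose pattern was most like C3 by Pearson correlation of log2(value + 1) were CXCL8 (0.974), IRAK2 (0.967), TNFAIP3 (0.960), IL1B (0.958) and CSF3 (0.956). CXCL8, IL1B and CSF3 encode secreted inflammatory factors, and IRAK2 and TNFAIP3 encode proteins of interleukin-1 and NF-kB signalling. CXCL8, for example, had means of 5763 in NT3, 1941 in NT4, 3324 in CDK4 knockdown, 1452 in CCND1 knockdown, 409 in CDK6 knockdown and 296 in dual knockdown, the order of C3 except that C3 had nearly the same mean in NT4 and CCND1 knockdown. The gene most like C1R was C1S (0.873), and the others were SQOR for C1S (0.887), NSFL1C for SERPING1 (0.907), VEGFC for CD55 (0.980) and GSTA4 for CD59 (0.913). Among the 6 tested genes, C3 went with CD55 (0.850) and against CD59 (-0.66), and with SERPING1 hardly at all (0.09). These correlations describe libraries that share their groups and carry no test.

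Of 52 other complement genes listed by role, 19 passed the filter. In senescent controls 13 were called higher and 4 lower than in proliferating cells (68.6% of all tested genes were called), with a median difference of 0.95. Nothing is read from this count, since the list was drawn up with earlier results of these data known. Against the controls 4 were higher and 3 lower with CCND1 knockdown (31.0% of all tested genes called), 1 and 1 with CDK4 knockdown (16.0%), 4 and 6 with CDK6 knockdown (41.9%), and 3 and 7 with dual knockdown (44.0%), which is near those shares. The median differences over the 19 were 0.10, -0.08, 0.14 and -0.13, beside medians over all tested genes of -0.0105 to 0.00311. By role, the list had 1 tested gene of the classical pathway, C1RL, and 5 of the lectin pathway, 4 of the terminal pathway, 4 soluble regulators, 3 membrane regulators and 2 receptors.

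CD46, a membrane cofactor for factor I, rose in all 4 knockdowns, by 0.40 with CCND1, 0.17 with CDK4, 0.25 with CDK6 and 0.25 with dual knockdown (limma adjusted p = 7.31e-06, 0.0312, 0.000835 and 0.000658). The controls differed too, with means of 3656 normalised counts in NT3 and 3056 in NT4 (-0.25; limma adjusted p = 0.00412), and libraries of CDK4, CDK6 and dual knockdown overlapped the controls while those of CCND1 knockdown (mean 4414) did not. MASP1, a lectin pathway protease, rose with CCND1 (0.79), CDK6 (0.99) and dual knockdown (0.52), and fell with CDK4 knockdown (-0.47). CLU, a soluble inhibitor of the terminal complex, rose by 0.27 with CCND1, 0.28 with CDK6 and 0.31 with dual knockdown. THBD, thrombomodulin, fell with CCND1 (-0.83), CDK6 (-1.95) and dual knockdown (-1.74), from a control mean of 55.9 normalised counts. C1QBP, a C1q-binding protein that is mainly mitochondrial, fell with CCND1 (-0.73), CDK6 (-0.38) and dual knockdown (-0.19). Genes that did not pass the filter included C1QA, C1QB, C1QC, C2, C4A, C4B, MBL2, FCN1, FCN2, FCN3, CFP, C8A, C8B, C8G, CFHR2, CFHR3, CFHR4, CFHR5, C4BPA, C4BPB, CPN1, CPN2, CR1, VSIG4, CSMD1, CR2, C3AR1, C5AR2, ITGAM, ITGAX, ITGB2 and CD93.

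Genes known to induce complement transcription were counted in the same way. Of 22 listed, 19 passed the filter. Against the controls 1 was higher and 7 lower with CCND1 knockdown (31.0% of all tested genes called), 2 and 0 with CDK4 knockdown (16.0%), 1 and 11 with CDK6 knockdown (41.9%), and 2 and 10 with dual knockdown (44.0%), with medians of -0.21, -0.07, -0.48 and -0.40. Of the cytokine genes, IL1B, IL1A and IL6 fell in 3 knockdowns. With CCND1, CDK6 and dual knockdown the log2 differences were -0.98, -3.38 and -3.97 for IL1B, -1.48, -3.10 and -3.49 for IL1A, and -0.83, -1.96 and -2.15 for IL6. The 2 controls themselves differed in these genes: NT4 was below NT3 by limma for IL6 (-2.12; adjusted p = 4.38e-06), IL1B (-1.47; 0.000289) and IL1A (-1.13; 0.0396). The IL6 mean with CCND1 knockdown, 627 normalised counts, lay above the NT4 mean of 514 and below the NT3 mean of 2245, so that direction depends on the control. LIF, another cytokine gene, changed less, by -0.54 with CDK6 and -0.57 with dual knockdown, and did not pass with CCND1 knockdown (-0.10). With CDK4 knockdown the differences of IL1B, IL1A and IL6 were -0.11, -0.08 and -0.30, and none passed. Among transcription factors, the differences for CCND1, CDK6 and dual knockdown were -0.53, -1.06 and -0.96 for CEBPB, -0.47, -1.09 and -1.01 for RELB, and -0.52, -0.59 and -0.40 for IRF1, and all passed. IFNAR1, an interferon receptor subunit, rose by 0.33, 0.36 and 0.29 with these knockdowns. STAT3 rose with CDK4 (0.21) and dual knockdown (0.17) and fell with CDK6 knockdown (-0.35). TNF did not pass the filter, but it lies in the chromosome 6 stretch that is low in the table. A role of these genes in the C3 values was not tested.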

How the data were processed

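RNA sequencing of 21 libraries in 7 groups was analysed from 1 deposited table. Per the submitters' processing notes, which name tools without their order, the authors used Trimmomatic 0.38.1, HISAT2 2.2.1, featureCounts 2.0.3, FastQC 0.74, MultiQC and DESeq2 2.11.40.8 with hg38; the annotation, strand setting and handling of reads with several matches are not given in the sources used here. The deposited signal is a normalised count per gene and library, per the file headers; 100% of values were whole multiples, within 0.01, of 1 step per library, so reads can be recovered from it. Depth was 12892442 to 21822152 reads per library; intervals on reads cover counting error only.

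A gene was tested if 3 or more libraries reached a value of 10 (11579 genes). In R 4.3.3, limma 3.58.1 fitted log2(value + 1) over all 7 groups, with a mean for each and a trended variance; tests were two-sided with Benjamini-Hochberg adjustment over all tested genes within each of 13 comparisons, and a threshold of 0.05. The fit was checked on simulated data. Coordinates, exon lengths and exon overlaps of the 9 genes come from GENCODE v44. Neighbours, the chromosome 6 stretch and promoters come from RefSeq. Genes were joined by Ensembl ID, Entrez ID or symbol. All 9 genes were named; other complement genes and inducers were named where they passed in at least 3 of 4 knockdowns, and the genes most like each member by correlation. The members, lists and tests were chosen with earlier results of these data known. Alternatives tried were quantile normalization, median centring, other pseudocounts (0.1, 10), testing all genes or those averaging 100 or more, each control alone, the compared groups only, each library left out, edgeR 4.0.16 and DESeq2 1.42.0 on the recovered reads, and a block by code run, the last chosen after seeing the data. CFB, CFD and CFI were not tested because they did not pass the filter. Some listed genes are counted but not reported here by name.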

Additional observations from a re-analysis of the deposited data

How the results depend on the processing

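Over 72 tested results for the 6 genes and 1410 alternatives, 1354 were unchanged in call, 15 lost the call, 39 gained one and 2 reversed. A reversal was counted only where the main fit or the alternative passed. The 1354 therefore include sign changes without a call, as for C3 with CDK4 knockdown, which ranged from -0.69 to 0.29. The reversals were SERPING1 with NT3 alone as control, at -0.18 in CCND1 knockdown and -0.16 in CDK6 knockdown. The moves of the counts of called genes that were largest in proportion were as follows. Smaller moves are given only for leaving out libraries, and the cause was not tested. With NT3 alone as control, CCND1 knockdown had 4 called genes, CDK4 knockdown 2 and CDK6 knockdown 5, and with NT4 alone CCND1 knockdown had 2. Quantile normalization gave 2 for CCND1 knockdown. Fitting the compared groups only gave 0 for CDK4 knockdown and 2 for CCND1 against CDK4 knockdown. Leaving out 1 library at a time gave 1 to 2 for CCND1, 0 to 2 for CDK4, 2 to 4 for CDK6 and 3 to 5 for dual knockdown. It gave 2 to 4 for NT4 against NT3 and 2 to 3 for dual against CDK4 knockdown. The range was 0 to 1 for dual against CDK6 knockdown and 1 to 2 for CCND1 against dual knockdown.

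No paired analysis was possible because the columns do not carry the labels' replicate numbers. A replicate block by code run, chosen after seeing the data, gave 2 for CCND1 knockdown, adding C3 (adjusted p = 0.0454), and put C3 in NT4 against NT3 past the threshold (adjusted p = 0.00263). Deviations of libraries of 1 run correlated with a median of 0.037, against -0.017 for libraries of different runs, and 1 of 45 same-run pairs exceeded 0.1. A correlation over all tested genes need not show a pairing that acts on few genes such as C3. Whether the runs pair libraries is therefore not known, and the main fit has no block. Over all genes the block called 3389 with CCND1 knockdown against 3331 without it in irradiated libraries. The C3 difference of senescent controls from proliferating cells ranged from 7.13 with a pseudocount of 10 to 9.20 with NT3 alone; it was 8.22 with NT4 alone. Median centring raised the differences of senescent from proliferating cells, C1S for example from 1.29 to 1.40 and CD59 from 0.33 to 0.44. At a depth of 3 reads or fewer, CFB, CFD and most CFI values allow no comparison.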
